A study of Mus musculus with 8 samples.

Results

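The mRNA levels of 41 genes of cholesterol and fatty acid synthesis, of its control and of sterol transport were followed in Ba/F3 cells, of which 40 could be tested among 13848 genes and unnamed transcripts in all. The genes were listed by their place in the pathway and found by the gene name that the scanner files give each probe (Msmo1 under its older name Sc4mol). Probes had to be well above background on both arrays of some group to be used, and of several such probes the brightest stood for its gene. The list held 7 enzymes of the early mevalonate pathway, 11 of the squalene and sterol ring steps, 5 genes of the sterol-sensing SREBP system, 4 of sterol uptake and transport, 5 nuclear receptors of the LXR type and their targets, 5 genes of fatty acid synthesis and 4 desaturases. The desaturase Scd1 was well above background on none of the arrays and was not tested.

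Ba/F3 is a mouse pro-B cell line that grows on the cytokine IL3, and its cells carried either wild type FLT3, a receptor tyrosine kinase of blood progenitors, or its internal tandem duplication form (FLT3/ITD), in which the kinase is active without ligand. All cells were maintained with 0.1 ng/ml IL3, then washed and kept for 4 h in medium with 0.5% albumin, without or with 100 ng/ml Cxcl12, a chemokine that signals through Cxcr4. The 4 groups, each with 2 arrays, were wild type, FLT3/ITD, wild type with Cxcl12 and FLT3/ITD with Cxcl12. Set 1 and set 2, each 1 slide, held 1 array of every group. FLT3/ITD carried the label N51 in set 1 and N78 in set 2, so the duplication and the set cannot be told apart. Each group also lay at the same position of both slides, so group and position cannot be told apart. How FLT3 was introduced, and whether each line was a clone, is not given in the sources used here. The labels do not say whether the samples came from separate cultures, so the p-values measure only the spread between these samples.

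Cholesterol is built from acetyl-CoA through mevalonate, isoprenoid units and squalene, which is closed to the first sterol ring and then trimmed to cholesterol. Fatty acid synthesis starts from the same acetyl-CoA. Both pathways are switched on by SREBP transcription factors, which Scap carries out of the endoplasmic reticulum when sterols are low and which Insig proteins hold back when sterols are high. LXR receptors respond to oxidised sterols and drive genes that export cholesterol from the cell.

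In FLT3/ITD cells 8 of 18 sterol synthesis enzymes, 1 of 5 fatty acid synthesis genes and 1 of 3 tested desaturases had higher mRNA levels than in wild type FLT3 cells. In the average of both Cxcl12 conditions (4 arrays against 4) 10 of 40 members rose, against 3.57% of all features, at a limma adjusted p under 0.05. They were the early enzymes Hmgcs1, Mvd and Idi1, the sterol ring enzymes Lss, Cyp51, Msmo1, Nsdhl and Dhcr7, the fatty acid synthase Fasn and the desaturase Scd2. The cholesterol exporter Abca1 fell, 1 of 40 members against 2.57% of all features. The median difference was 0.39 on the log2 scale over the 40 members and -0.01 over all features. In both sets 28 members were higher in FLT3/ITD cells, against 30.9% of all features, and 5 were lower, against 33.3%. An unadjusted p under 0.05 in the higher direction was found for 20 of 40, against 14% of all features. Each array measured the RNA of a whole sample, in which less mRNA per cell and fewer cells with the mRNA cannot be told apart.

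**Figure D1:**
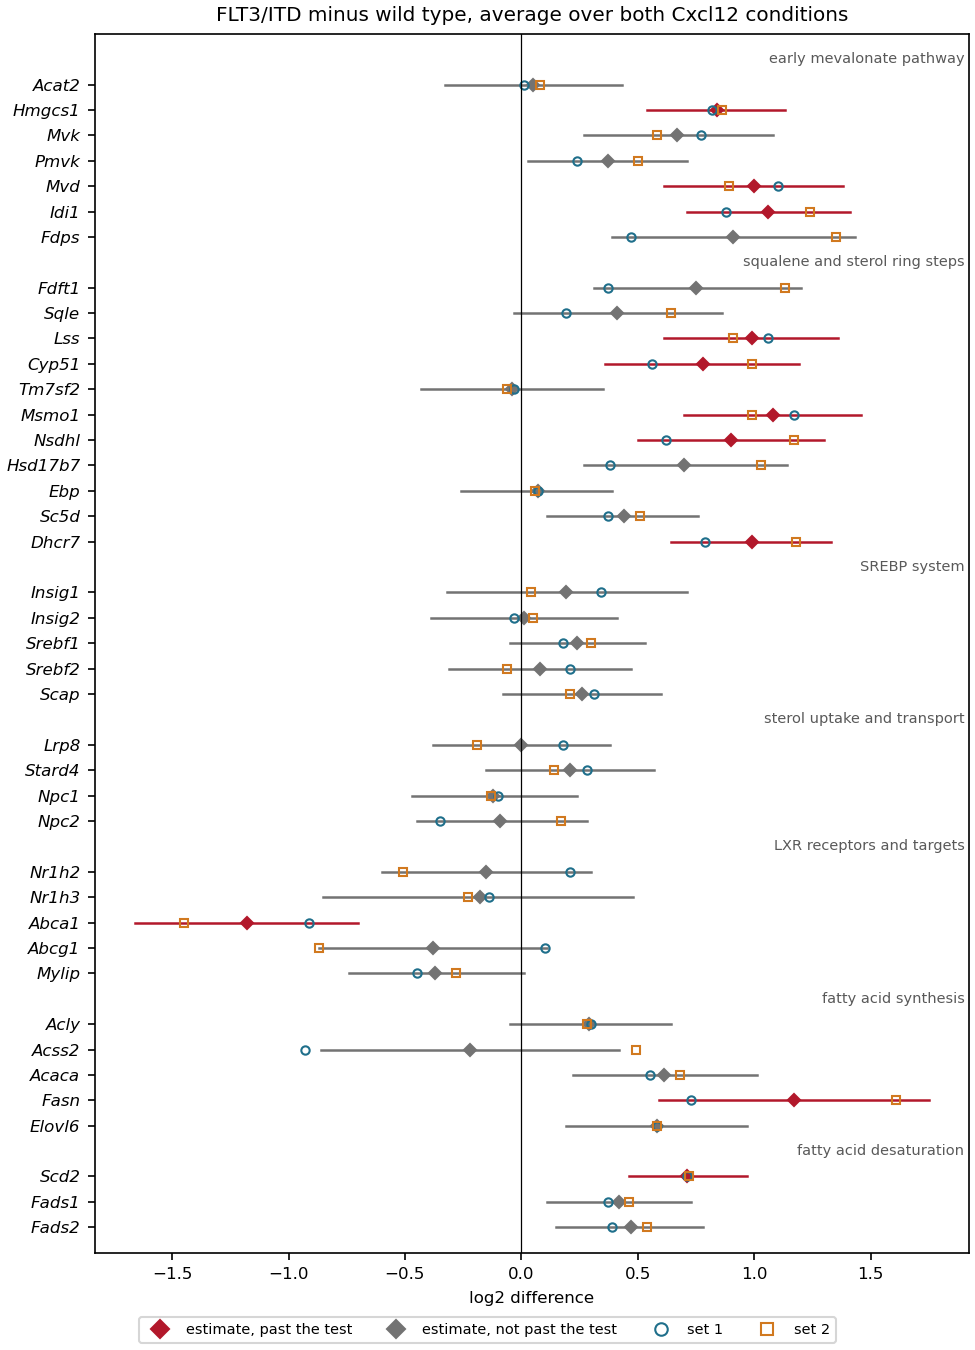
Average FLT3/ITD effect of the 40 tested genes by role: log2 difference, FLT3/ITD minus wild type (horizontal axis), with the limma estimate and its 95% interval (diamond and bar, red where past the test) and the difference within set 1 and set 2 alone (open circle and square). Of the 18 sterol synthesis enzymes 17 lie to the right of 0, Fasn lies at 1.17 and Abca1 at -1.18. Of all 13848 features 6765 were above 0.

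The bases before the start sites of the genes that passed are shown because these genes moved together and because the SREBP factors and their partners bind near starts. RefSeq promoter windows (GRCm38.p6) were matched by symbol for 32 of 41 members, and for 9 of the 10 that rose. The 250 bases upstream of each start were searched on both strands for TCACNCCAC and its shorter form TCACNCCA (sterol regulatory elements), for CCAAT (the CCAAT box) and for GGGCGG (the GC box bound by Sp1). Each sequence runs 5′ to 3′ toward the start on the gene's own strand, with every match on either strand in capitals, for the genes that rose by falling size of the difference and then for Abca1. Of the start sites of Dhcr7 with a match, the one with the most matches is shown.
Fasn chr11:120824548-120824797 (minus strand): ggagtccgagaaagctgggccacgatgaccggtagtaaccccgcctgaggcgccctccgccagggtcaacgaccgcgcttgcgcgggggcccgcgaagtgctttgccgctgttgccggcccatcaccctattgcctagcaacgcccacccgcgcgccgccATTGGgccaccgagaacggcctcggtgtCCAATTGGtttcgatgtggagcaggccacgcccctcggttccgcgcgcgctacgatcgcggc
Msmo1 chr8:64733579-64733828 (minus strand): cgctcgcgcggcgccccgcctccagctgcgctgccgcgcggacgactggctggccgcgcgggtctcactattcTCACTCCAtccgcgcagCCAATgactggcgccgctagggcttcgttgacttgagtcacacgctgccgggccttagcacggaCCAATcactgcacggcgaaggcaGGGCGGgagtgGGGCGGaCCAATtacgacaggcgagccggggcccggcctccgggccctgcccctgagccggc
Idi1 chr13:8885356-8885605 (plus strand): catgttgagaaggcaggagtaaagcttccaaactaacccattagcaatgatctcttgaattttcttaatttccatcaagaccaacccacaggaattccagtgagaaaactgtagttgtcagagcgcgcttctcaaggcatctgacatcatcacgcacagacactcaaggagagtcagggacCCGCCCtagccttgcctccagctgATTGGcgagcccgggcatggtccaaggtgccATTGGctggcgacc
Mvd chr8:122443423-122443672 (minus strand): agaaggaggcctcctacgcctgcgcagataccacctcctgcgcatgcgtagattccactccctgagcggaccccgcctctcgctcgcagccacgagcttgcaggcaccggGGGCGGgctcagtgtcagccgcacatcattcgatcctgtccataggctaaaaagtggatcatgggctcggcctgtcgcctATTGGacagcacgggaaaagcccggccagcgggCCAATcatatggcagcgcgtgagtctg
Dhcr7 chr7:143829964-143830213 (plus strand): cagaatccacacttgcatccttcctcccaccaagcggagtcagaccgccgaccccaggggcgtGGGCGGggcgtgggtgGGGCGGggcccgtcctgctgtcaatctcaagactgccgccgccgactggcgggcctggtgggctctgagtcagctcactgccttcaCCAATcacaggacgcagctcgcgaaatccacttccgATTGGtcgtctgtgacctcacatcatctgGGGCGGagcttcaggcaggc
Lss chr10:76531355-76531604 (plus strand): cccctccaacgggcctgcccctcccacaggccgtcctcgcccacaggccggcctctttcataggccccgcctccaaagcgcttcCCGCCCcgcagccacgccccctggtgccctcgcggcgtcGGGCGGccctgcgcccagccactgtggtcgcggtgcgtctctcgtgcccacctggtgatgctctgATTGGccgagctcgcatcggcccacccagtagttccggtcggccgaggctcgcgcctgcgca
Nsdhl chrX:72918271-72918520 (plus strand): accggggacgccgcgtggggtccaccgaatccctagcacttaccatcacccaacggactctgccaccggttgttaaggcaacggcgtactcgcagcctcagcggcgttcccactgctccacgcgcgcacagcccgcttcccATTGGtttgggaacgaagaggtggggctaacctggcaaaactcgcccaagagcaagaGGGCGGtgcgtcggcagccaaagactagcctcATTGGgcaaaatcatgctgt
Hmgcs1 chr13:119690101-119690350 (plus strand): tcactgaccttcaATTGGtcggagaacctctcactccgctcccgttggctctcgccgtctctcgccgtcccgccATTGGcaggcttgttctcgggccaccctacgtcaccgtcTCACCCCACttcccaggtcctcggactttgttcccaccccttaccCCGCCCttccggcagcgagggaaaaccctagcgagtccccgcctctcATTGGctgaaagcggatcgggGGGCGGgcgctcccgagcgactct
Cyp51 chr5:4104698-4104947 (minus strand): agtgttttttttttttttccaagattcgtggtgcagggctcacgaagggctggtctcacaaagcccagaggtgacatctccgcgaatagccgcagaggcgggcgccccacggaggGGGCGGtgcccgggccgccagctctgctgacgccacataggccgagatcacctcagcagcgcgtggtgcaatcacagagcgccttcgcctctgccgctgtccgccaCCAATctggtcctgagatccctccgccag
Abca1 chr4:53159896-53160145 (minus strand): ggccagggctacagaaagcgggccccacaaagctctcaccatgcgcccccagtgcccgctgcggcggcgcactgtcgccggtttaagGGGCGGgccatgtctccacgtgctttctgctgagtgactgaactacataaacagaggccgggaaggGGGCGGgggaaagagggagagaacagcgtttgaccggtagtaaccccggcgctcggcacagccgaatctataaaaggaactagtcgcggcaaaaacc
TCACNCCAC was found in 1 of the 32 matched members, Hmgcs1, with its last base 129 bases before the start, and in 1.05% of all 32851 windows. The shorter TCACNCCA was also found in Msmo1, 170 bases before the start, and in Srebf2, so in 3 of 32 members against 3.67% of all windows. A CCAAT box was found in 9 of the 9 matched genes that rose, in 13 of the 23 other matched members and in 33.8% of all windows. A GC box was found in 8 of those 9, in 17 of the other 23 and in 32.7% of all windows. A member with several windows counts once if any window holds the motif. By window 23 of 43 held a CCAAT box and 28 of 43 a GC box. Dhcr7 counts for the CCAAT box through the last of its 3 windows, while the window at its annotated gene start held none. In the Fasn window the CCAAT boxes of both strands overlapped once, and no other of the matches shown overlapped beyond the shared TCACNCCA. Abca1 held GC boxes and neither of the other kinds of motif. Only these exact letters were searched, so other forms of the motifs would be missed.

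In the early mevalonate pathway 3 of 7 enzymes rose, against 3.57% of all features, and the median difference was 0.84, against -0.01. Levels are log2 intensities after the 75th percentile of each array was subtracted, given in the order wild type, FLT3/ITD, wild type with Cxcl12 and FLT3/ITD with Cxcl12. Hmgcs1 makes the activated precursor of mevalonate, and its probe lies on an unplaced stretch of chromosome 13 in mm9. Hmgcs1 levels were 3.99, 4.84, 4.50 and 5.29 in set 1 and 2.70, 3.69, 3.46 and 4.17 in set 2. In each set both FLT3/ITD arrays lay above both wild type arrays, and the level rose by 0.84 (SE 0.13, adjusted p = 0.0112), which is 1.78-fold. Mvd turns mevalonate diphosphate into the first isoprenoid unit (probe at chr8:124957750-124957809, mm9). Mvd stood at 1.03, 1.95, 1.61 and 2.88 in set 1 and at 1.16, 2.40, 2.29 and 2.85 in set 2. Here too the groups did not overlap within a set, and Mvd rose by 1.0 (SE 0.17, adjusted p = 0.0148). Idi1 converts isoprenoid units into each other (probe at chr13:8891386-8891445, mm9). Its levels were 4.23, 5.01, 5.14 and 6.12 in set 1 and 2.54, 3.87, 3.28 and 4.42 in set 2. In set 1 wild type cells with Cxcl12 lay slightly above FLT3/ITD cells without it, and in set 2 the groups did not overlap. Idi1 rose by 1.06 (SE 0.16, adjusted p = 0.00894), 2.08-fold.

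The other 4 early enzymes did not pass the test. Fdps, which joins isoprenoid units into farnesyl diphosphate, differed by 0.91 (95% interval 0.39 to 1.43, adjusted p = 0.053). Its difference was 0.47 in set 1 and 1.35 in set 2. The mevalonate kinase Mvk differed by 0.67 (0.27 to 1.08, adjusted p = 0.0578) and the next kinase of the chain, Pmvk, by 0.37 (0.03 to 0.71). Acat2, which joins the first acetyl units, differed by 0.05 (-0.33 to 0.43), the smallest difference of the 7.

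**Figure D2:**
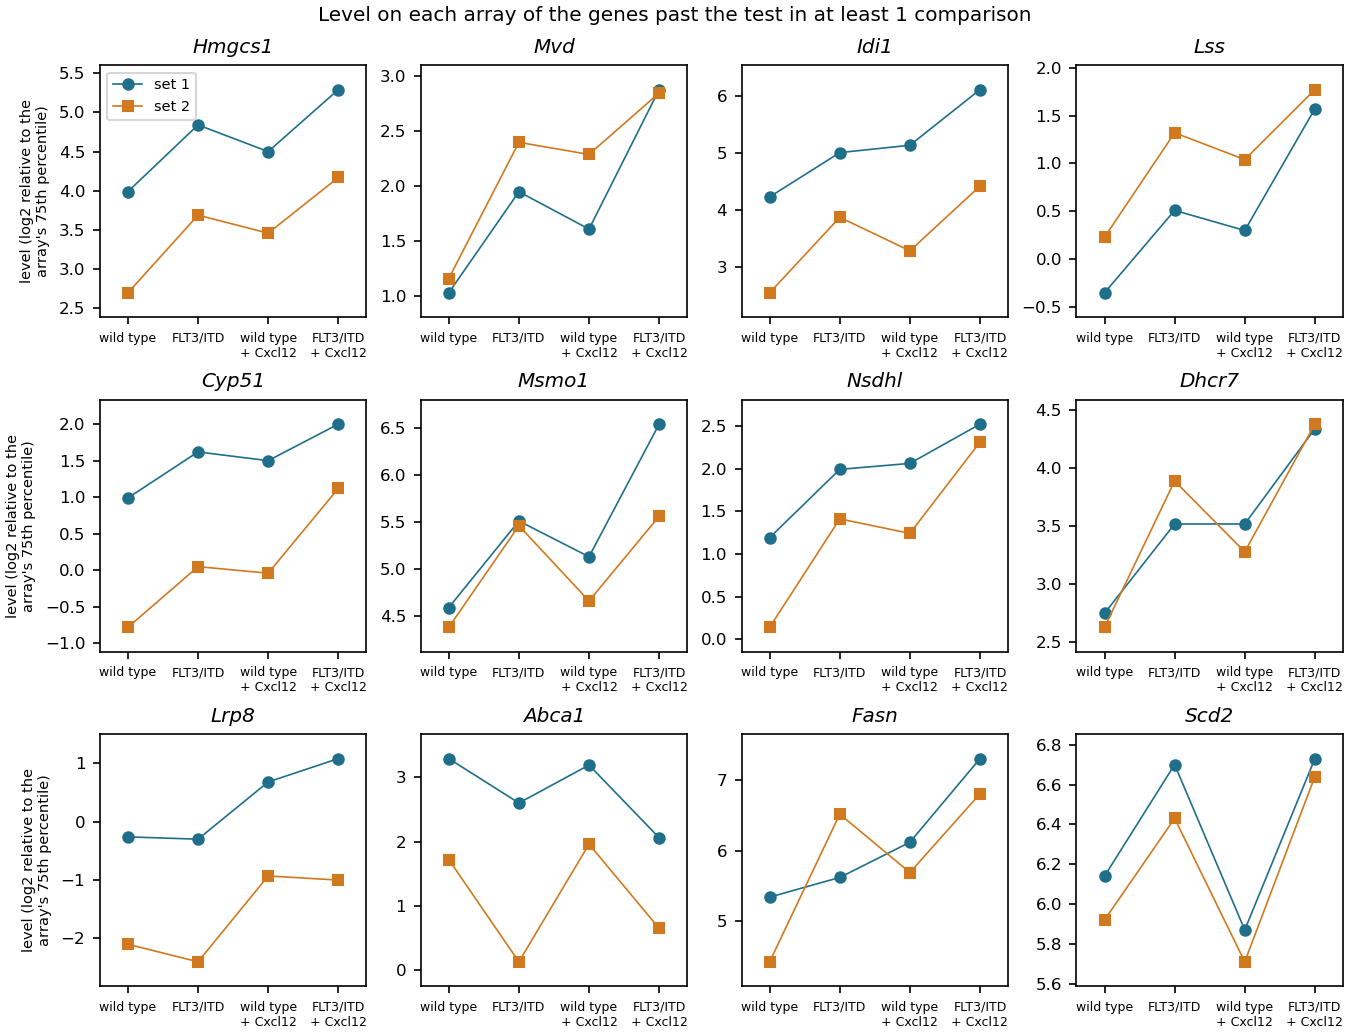
Level on each array (log2 intensity minus the 75th percentile of the array, vertical axis) of the 12 genes past the test in at least 1 comparison, in the 4 groups (horizontal axis), with set 1 as circles and set 2 as squares, 1 array per point, and lines that join the arrays of a set. The vertical scale differs between panels. In 9 of the panels wild type is lowest and FLT3/ITD with Cxcl12 highest in both sets, against 4.2% of all features. The panels were chosen by tests on these same arrays, so their order is no separate support.

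Of the 11 enzymes from squalene to the finished sterol ring, 5 rose, against 3.57% of all features. The median difference was 0.75, against -0.01 over all features. Lss closes squalene epoxide to lanosterol, the first sterol (probe at chr10:76015992-76016051, mm9). It stood at -0.35, 0.51, 0.30 and 1.57 in set 1 and at 0.23, 1.32, 1.04 and 1.77 in set 2. Both FLT3/ITD arrays lay above both wild type arrays of their set, and Lss rose by 0.99 (SE 0.17, adjusted p = 0.0143). Cyp51 starts the removal of methyl groups from lanosterol (probe at chr5:4083236-4083295, mm9). Its levels were 0.99, 1.62, 1.5 and 2.0 in set 1 and -0.78, 0.05, -0.04 and 1.12 in set 2. The groups did not overlap within a set but came close without Cxcl12 in FLT3/ITD and with it in wild type cells, and Cyp51 rose by 0.78 (SE 0.18, adjusted p = 0.0443).

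Msmo1 and Nsdhl work on the methyl groups next in the chain. Msmo1 (probe at chr8:67196982-67197041, mm9) stood at 4.59, 5.51, 5.13 and 6.54 in set 1 and at 4.38, 5.46, 4.66 and 5.56 in set 2. All 4 FLT3/ITD arrays lay above all 4 wild type arrays, and Msmo1 rose by 1.08 (SE 0.17, adjusted p = 0.0109), 2.11-fold. Nsdhl (probe at chrX:70203236-70203295, mm9) stood at 1.19, 1.99, 2.06 and 2.52 in set 1 and at 0.14, 1.41, 1.24 and 2.31 in set 2. In set 1 wild type cells with Cxcl12 again reached the level of FLT3/ITD cells without it, and Nsdhl rose by 0.90 (SE 0.18, adjusted p = 0.0258). Dhcr7 catalyses the last reduction to cholesterol (probe at chr7:151034253-151034312, mm9). Its levels were 2.75, 3.52, 3.52 and 4.34 in set 1 and 2.63, 3.89, 3.28 and 4.38 in set 2. In set 1 FLT3/ITD cells without Cxcl12 and wild type cells with it were equal to 2 decimals, in set 2 the groups did not overlap, and Dhcr7 rose by 0.99 (SE 0.15, adjusted p = 0.0107).

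The squalene synthase Fdft1 differed by 0.75 (95% interval 0.31 to 1.2, adjusted p = 0.0568) and did not pass, with 0.37 in set 1 and 1.13 in set 2. Hsd17b7, a ketoreductase of the methyl removal, differed by 0.70 (0.27 to 1.14, adjusted p = 0.0646) and the desaturase Sc5d by 0.44 (0.11 to 0.76). The squalene epoxidase Sqle differed by 0.41 (-0.03 to 0.86). The sterol isomerase Ebp at 0.07 (-0.26 to 0.39) and the sterol reductase Tm7sf2 at -0.04 (-0.43 to 0.35) had intervals that leave out the size seen for Lss, Msmo1 and Dhcr7. Differences among the enzymes were not tested against each other.

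Fatty acid synthesis showed its largest difference at Fasn, the synthase that builds palmitate (probe at chr11:120668460-120668519, mm9). Fasn stood at 5.34, 5.62, 6.12 and 7.31 in set 1 and at 4.42, 6.52, 5.69 and 6.81 in set 2. Wild type was lowest and FLT3/ITD with Cxcl12 highest in both sets, but in set 1 wild type cells with Cxcl12 lay above FLT3/ITD cells without it. Fasn rose by 1.17 (SE 0.25, adjusted p = 0.0336), 2.25-fold, with 0.73 in set 1 and 1.61 in set 2. Acaca, the carboxylase that feeds Fasn, differed by 0.61 (95% interval 0.22 to 1.01, adjusted p = 0.0706). The elongase Elovl6 differed by 0.58 (0.19 to 0.97, adjusted p = 0.0788). Acly, which makes acetyl-CoA from citrate, differed by 0.29 (-0.05 to 0.64). For Acss2, which makes it from acetate, the sets went opposite ways, with -0.93 in set 1 and 0.49 in set 2, and the average was -0.22 (-0.86 to 0.42).

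Of the 3 desaturases tested, Scd2 passed the test (probe at chr19:44381024-44381083, mm9). Scd2 puts the first double bond into saturated fatty acids. Its levels were 6.14, 6.70, 5.87 and 6.73 in set 1 and 5.92, 6.43, 5.71 and 6.64 in set 2. All 4 FLT3/ITD arrays lay above all 4 wild type arrays, and Scd2 rose by 0.71 (SE 0.11, adjusted p = 0.0112). Fads1 and Fads2, desaturases of polyunsaturated fatty acids, differed by 0.42 (95% interval 0.11 to 0.73, adjusted p = 0.099) and 0.47 (0.15 to 0.78, adjusted p = 0.0806).

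None of the 5 sterol-sensing genes passed. The transcription factor genes Srebf1 and Srebf2 differed by 0.24 (95% interval -0.05 to 0.53) and 0.08 (-0.31 to 0.47). Their escort Scap differed by 0.26 (-0.08 to 0.60). The retention factors Insig1 and Insig2 differed by 0.19 (-0.32 to 0.71) and 0.01 (-0.39 to 0.41). These are mRNA levels, and the processing of SREBP proteins was not measured. None of the 4 uptake and transport genes passed either. Lrp8, a lipoprotein receptor, had an interval of -0.38 to 0.38, and the lysosomal sterol carriers Npc1 and Npc2 differed by -0.12 (-0.47 to 0.24) and -0.09 (-0.45 to 0.28). The cytosolic sterol carrier Stard4 differed by 0.21 (-0.15 to 0.57).

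Of the 5 genes of the LXR group 1 fell, against 2.57% of all features. Abca1 moves cholesterol out of the cell (probe at chr4:53043944-53044003, mm9). Abca1 levels were 3.29, 2.60, 3.19 and 2.06 in set 1 and 1.72, 0.13, 1.96 and 0.65 in set 2. Within each set both FLT3/ITD arrays lay below both wild type arrays, and Abca1 fell by 1.18 (SE 0.21, adjusted p = 0.0189), so wild type was 2.27-fold higher. Abcg1, another exporter, differed by 0.10 in set 1 and -0.87 in set 2, -0.38 in all (95% interval -0.87 to 0.11). Mylip, which marks lipoprotein receptors for degradation, differed by -0.37 (-0.74 to 0.01). The receptor gene Nr1h2 differed by -0.15 (-0.60 to 0.30). Nr1h3, the other receptor, was well above background only on the 2 wild type arrays without Cxcl12, the group through which it entered the test. It differed by -0.18 (-0.85 to 0.48) in the average and did not pass without Cxcl12 either (adjusted p = 0.605). This close to background, no size or direction is read from it.

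The calls in this average depended on the arrays and the fit. Without the set as a block no member passed, and 8 of 40 had an unadjusted p under 0.05. Without the wild type with Cxcl12 array of set 2 only Mvd passed, without the FLT3/ITD array of set 2 Idi1 and Scd2, without the wild type with Cxcl12 array of set 1 3 members and without the wild type array of set 2 6 members. Over the 17 alternatives the call was lost 3 times for Idi1, 4 times each for Mvd, Lss and Dhcr7, 5 times each for Hmgcs1 and Scd2, 6 times for Msmo1 and 7 times for Abca1. It was lost 9 times for Nsdhl, 10 times for Fasn and 11 times for Cyp51. The sign of the difference held for these 11 genes under all 17. Other probes of the called genes had the same sign in 12 of 12 cases, and those of all members in 23 of 28. Among the exceptions another Acaca probe gave -0.36 against 0.61, and an Acss2 probe gave 1.11 against -0.22.

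With the Cxcl12 conditions taken apart, each comparison rests on 2 arrays against 2 and fewer calls were made. In cells without Cxcl12 none of 40 members passed, against 0.274% of all features higher and 0.231% lower, while 16 had an unadjusted p under 0.05 in the higher direction, against 6.04%. In both sets 24 members were higher, against 24.1% of all features, and 7 lower, against 35.2%. The median difference of the members was 0.33, against -0.05 over all features. The largest differences of the same direction in both sets were at Fasn, Fdps and Abca1, and these did not pass. Fasn differed by 1.19 (95% interval 0.37 to 2.01, adjusted p = 0.255), with 0.28 in set 1 and 2.10 in set 2. Abca1 differed by -1.14 (-1.83 to -0.46, adjusted p = 0.191), with -0.69 in set 1 and -1.59 in set 2. Fdps stood at 4.65, 5.18, 5.19 and 5.59 in set 1 and at 2.01, 3.77, 3.54 and 4.47 in set 2. Wild type cells without Cxcl12 were lowest in both sets, and Fdps differed by 1.15 (0.41 to 1.88, adjusted p = 0.221) without Cxcl12. Over the 17 alternatives Fasn ranged from 0.43 (without the FLT3/ITD array of set 2) to 1.94, Abca1 from -1.68 to -0.61 (without that array) and Fdps from 0.52 (without the wild type array of set 2) to 1.77.

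With Cxcl12 on both sides 1 of 40 members rose, against 0.491% of all features, and none fell, against 0.347%. It was Scd2, at 0.90 (SE 0.16, adjusted p = 0.0434), with 0.86 in set 1 and 0.93 in set 2. This call was lost under 13 of the 17 alternatives tried, and the difference ranged from 0.68 to 1.69 over all 17. In both sets 29 members were higher, against 34.5% of all features, and 4 lower, against 27.8%. An unadjusted p under 0.05 in the higher direction was found for 16 of 40, against 10.7%. The median difference of the members was 0.40, against 0.04 over all features. Msmo1 differed by 1.15 (95% interval 0.62 to 1.69, adjusted p = 0.0691), Idi1 by 1.06 (0.56 to 1.56, adjusted p = 0.0712) and Abca1 by -1.22 (-1.90 to -0.54, adjusted p = 0.103). Both comparisons enter the average above and are not independent of it.

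With Cxcl12 all 18 sterol synthesis enzymes had a difference above 0, against 7078 of 13848 features, but a single member passed the test. Of the 18 enzymes, 16 were above 0 with normexp background correction and 17 without any 1 array of set 2. With normexp and the array's median background at spots marked as background outliers, all 18 were above 0. In the average over both kinds of cell (4 arrays against 4) 1 of 40 members rose, against 0.152% of all features, and none fell, against 0.231%. The median difference was 0.46 over the members and 0.01 over all features. In both sets 25 members were higher with Cxcl12, against 33.1% of all features, and 6 were lower, against 29.8%. An unadjusted p under 0.05 in the higher direction was found for 23 of 40 members, against 8.12% of all features. This comparison uses the same 8 arrays as the average FLT3/ITD comparison.

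**Figure D3:**
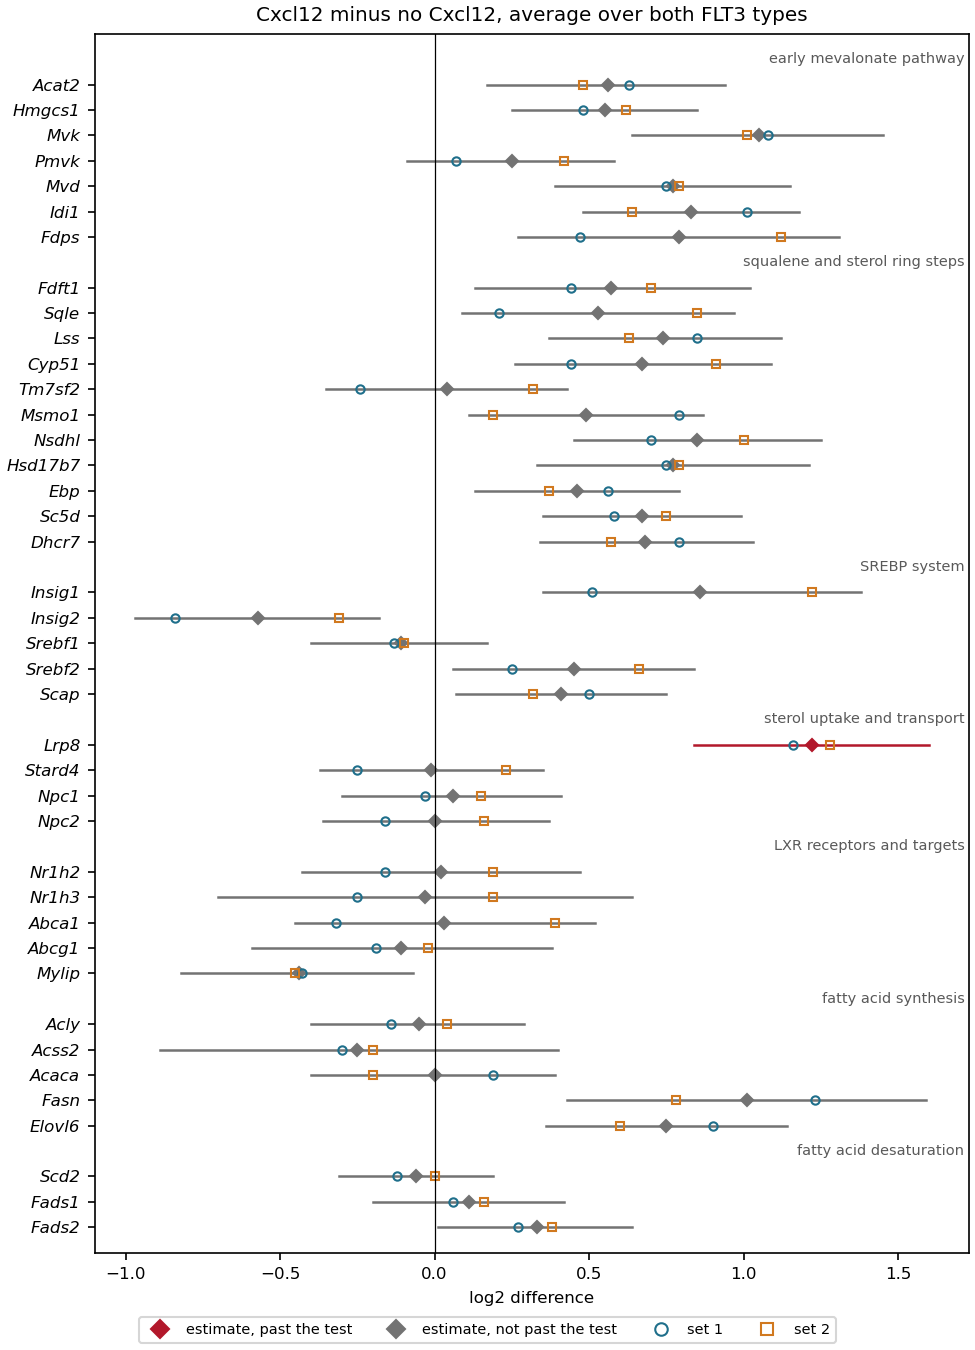
Average Cxcl12 effect of the 40 tested genes by role: log2 difference, with minus without Cxcl12 (horizontal axis), with the limma estimate and its 95% interval (diamond and bar, red where past the test) and the difference within set 1 and set 2 alone (open circle and square). Lrp8 at 1.22 is past the test. All 18 sterol synthesis enzymes (16 with normexp background correction, 17 without any 1 array of set 2) lie to the right of 0. Of all 13848 features 7078 were above 0.

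The gene that rose was Lrp8, a receptor for apolipoprotein E and reelin (probe at chr4:107549055-107549114, mm9). Lrp8 levels were -0.26, -0.30, 0.68 and 1.08 in set 1 and -2.10, -2.40, -0.93 and -1.0 in set 2. In both sets the Cxcl12 arrays lay above the arrays without it, in both kinds of cell, and Lrp8 rose by 1.22 (SE 0.17, adjusted p = 0.0333), 2.33-fold. Another pair of Lrp8 probes, also well above background on all 8 arrays, gave 0.64 and 0.48 and did not pass (adjusted p over all probes = 0.352 and 0.381). With the mean of the 3 probes the difference was 0.78 (adjusted p = 0.125), and without any 1 array the call was lost in 7 of 8 cases.

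None of the 18 sterol synthesis enzymes passed in the average Cxcl12 comparison, with a median difference of 0.67. The median was 0.37 with normexp background correction, and 0.64 where background outliers took the median background. In both sets 17 of the 18 were higher with Cxcl12, against 33.1% of all features. Mvk had the largest difference, 1.05 (SE 0.18, adjusted p = 0.0565), with 1.08 in set 1 and 1.01 in set 2. Nsdhl, Idi1 and Fdps followed at 0.85 (adjusted p = 0.0852), 0.83 (adjusted p = 0.0664) and 0.79 (adjusted p = 0.157). Tm7sf2 at 0.04 and Pmvk at 0.25 (adjusted p = 0.491) were the smallest.

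Outside the sterol enzymes the picture was mixed. The sensor Insig1, itself a known SREBP target, differed by 0.86 (SE 0.23, adjusted p = 0.135) and its relative Insig2 by -0.57 (SE 0.18, adjusted p = 0.177). Srebf2 and Scap differed by 0.45 and 0.41, Srebf1 by -0.11, and none of the 3 passed. Other Srebf2 probes, also well above background on all 8 arrays, gave 0.11 and 0.03. Fasn differed by 1.01 (adjusted p = 0.122) and Elovl6 by 0.75 (adjusted p = 0.101). Acly differed by -0.05 (SE 0.15) and Scd2 by -0.06 (SE 0.11). Abca1 differed by 0.03 (SE 0.21) with Cxcl12, with -0.32 in set 1 and 0.39 in set 2.

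In wild type FLT3 cells alone no member passed for Cxcl12, against 0.00722% of all features higher and 0.0578% lower, and 16 of 40 had an unadjusted p under 0.05 in the higher direction, against 2.87%. In both sets 24 members were higher, against 27.6% of all features, and 7 lower, against 31.6%. The median difference was 0.35, against -0.02 over all features, and turned to -0.23 with normexp background correction, which left 1 wild type array with Cxcl12 apart from the other 7. Mvk stood at -1.18, -0.45, -0.14 and 0.68 in set 1 and at -1.02, 0.05, 0.48 and 0.57 in set 2. Mvk was lowest in wild type cells without Cxcl12 in both sets, and with Cxcl12 it differed by 1.27 (95% interval 0.70 to 1.84, adjusted p = 0.223) in wild type cells. Insig1 stood at -2.55, -2.18, -2.01 and -1.70 in set 1 and at -1.12, -0.46, 0.71 and 0.14 in set 2. Its wild type difference was 0.54 in set 1 and 1.83 in set 2, 1.19 in all (0.46 to 1.92, adjusted p = 0.394), and it ranged from 0.66 to 1.72 over the alternatives. Lrp8 differed by 1.05 (0.52 to 1.59, adjusted p = 0.292).

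In FLT3/ITD cells alone limma called 0% of all features for Cxcl12 in either direction, and so no member. An unadjusted p under 0.05 was found for 17 of 40 members, all higher, and for 1446 of 13848 features, with 6.42% of all features in the higher direction. In both sets 27 members were higher, against 32.7% of all features, and 3 lower, against 26.3%. The fit without the set as a block also made no call. The median difference was 0.43, against 0.04 over all features. Lrp8 differed by 1.39 (95% interval 0.85 to 1.93, adjusted p = 0.245), with 1.38 in set 1 and 1.40 in set 2. Elovl6, which lengthens palmitate, stood at 1.87, 1.86, 2.18 and 3.34 in set 1 and at 2.13, 2.67, 2.69 and 3.31 in set 2. It was highest in FLT3/ITD cells with Cxcl12 in both sets, and its difference there was 1.06 (0.51 to 1.61, adjusted p = 0.31). Fasn differed by 0.99 (0.17 to 1.81, adjusted p = 0.413), with 1.69 in set 1 and 0.29 in set 2, and ranged from 0.23 to 1.75 over the alternatives.

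The interaction, the Cxcl12 difference in FLT3/ITD cells minus that in wild type cells, passed for 0% of all features and for no member, and no member had an unadjusted p under 0.05, against 236 of 13848 features, with 1.34% of all features in the higher direction. In both sets 11 members were above 0, against 28.8% of all features, and 10 below, against 20.2%. The median was 0.00 over the members and 0.06 over all features. The largest values of the same sign in both sets were at Acat2, Nr1h3 and Insig1. Acat2 stood at -2.30, -1.77, -1.16 and -1.66 in set 1 and at -0.95, -0.65, -0.25 and -0.38 in set 2. It was highest in wild type cells with Cxcl12 in both sets, and its interaction was -0.73 (95% interval -1.5 to 0.03, adjusted p = 1). Insig1 had -0.64 (-1.67 to 0.39, adjusted p = 1), and from -1.17 to -0.11 over the alternatives. Nr1h3, not well above background in 3 of the 4 groups, stood at -5.14, -5.70, -5.81 and -5.53 in set 1 and at -4.49, -5.02, -4.59 and -4.52 in set 2, and its interaction of 0.73 (-0.61 to 2.06, adjusted p = 1) has no settled size. All 3 intervals hold 0 and none of the 3 passed, so a difference between the kinds of cell was neither shown nor excluded.

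The 4 groups had a common order in many of the genes. It comes from the same arrays as both average comparisons above and is no separate support for them. In 17 of 40 members wild type cells without Cxcl12 were lowest and FLT3/ITD cells with Cxcl12 highest of the 4 groups in both sets, against 4.2% of all features. They were Hmgcs1, Mvk, Pmvk, Mvd, Idi1 and Fdps of the early steps, Fdft1, Lss, Cyp51, Msmo1, Nsdhl, Hsd17b7, Sc5d and Dhcr7 of the squalene and ring steps, and Fasn, Fads1 and Fads2. Over the 18 sterol synthesis enzymes the median level relative to wild type without Cxcl12 in set 1 was 0.58 in FLT3/ITD cells, 0.54 in wild type cells with Cxcl12 and 1.06 in FLT3/ITD cells with Cxcl12. In set 2 these medians were 1.08, 0.75 and 1.56. The level in FLT3/ITD cells without Cxcl12 and that in wild type cells with it thus lay close together in set 1 and in this order apart in set 2.

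**Figure D4:**
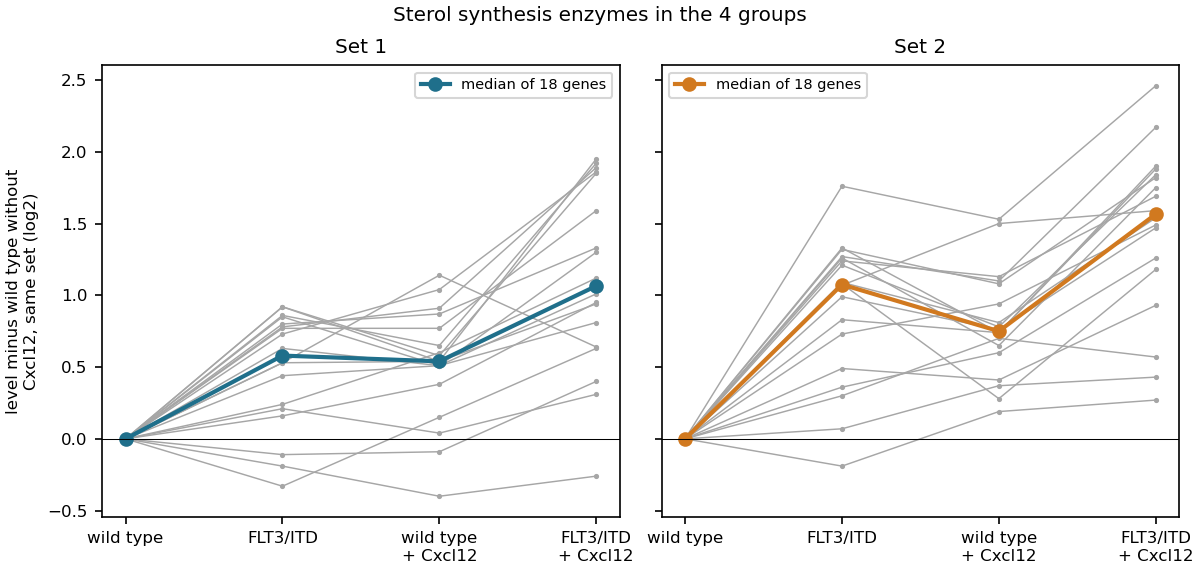
Level of the 18 sterol synthesis enzymes minus the level of wild type cells without Cxcl12 in the same set (log2, vertical axis) in the 4 groups (horizontal axis), with 1 grey line per gene and the median in colour, 1 array per group in each panel. The median is highest in FLT3/ITD cells with Cxcl12, at 1.06 in set 1 and 1.56 in set 2.

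The brightness of the arrays followed the same order and was scaled out by the 75th percentile. That percentile was 937, 1070, 1080 and 1110 in set 1 and 367, 539, 488 and 600 in set 2, lowest in wild type cells without Cxcl12 and highest in FLT3/ITD cells with Cxcl12. Its part in the order of the genes was not tested. With normexp background correction 5 members had this order, against 1.05% of all features. That correction moved 5238 bright probes by a median of -1.56 on the wild type with Cxcl12 array of set 2. On the other arrays the median was -0.19 to -0.07. After quantile normalization, which gives all arrays the same distribution, 17 members had this order, 15 of them the same genes, against 4.78% of all features.

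Genes of neighbouring lipid pathways, taken from 4 separate lists, were compared in the same way. Of 19 tested genes of the isoprenoid branches and of sterol handling, 1 passed in the average FLT3/ITD comparison, with a list median of 0.02. It was Lipa, the lysosomal lipase that frees cholesterol from its esters, which fell by 2.28 (SE 0.18, adjusted p = 0.000393), with -2.26 in set 1 and -2.30 in set 2. Lipa fell in both single comparisons too, by 1.94 without Cxcl12 (adjusted p = 0.015) and by 2.63 with it (adjusted p = 0.00301). Of 17 genes of fatty acid elongation, activation and glycerolipid synthesis, Gpam passed, the acyltransferase that starts glycerolipid synthesis, and rose by 0.68 (SE 0.15, adjusted p = 0.0353). The median of that list was 0.30. Of 14 genes of fatty acid oxidation 1 passed, with a median of -0.06. It was Cpt1a, which admits fatty acids to the mitochondrion, and it fell by 0.82 (SE 0.16, adjusted p = 0.0242). None of 7 genes of NADPH supply passed, with a median of 0.28. Over all features 3.57% rose and 2.57% fell in this comparison, so 1 gene of a list is near the share of all features and nothing is read from it about the list. In the average Cxcl12 comparison no gene of these 4 lists passed.

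**Figure D5:**
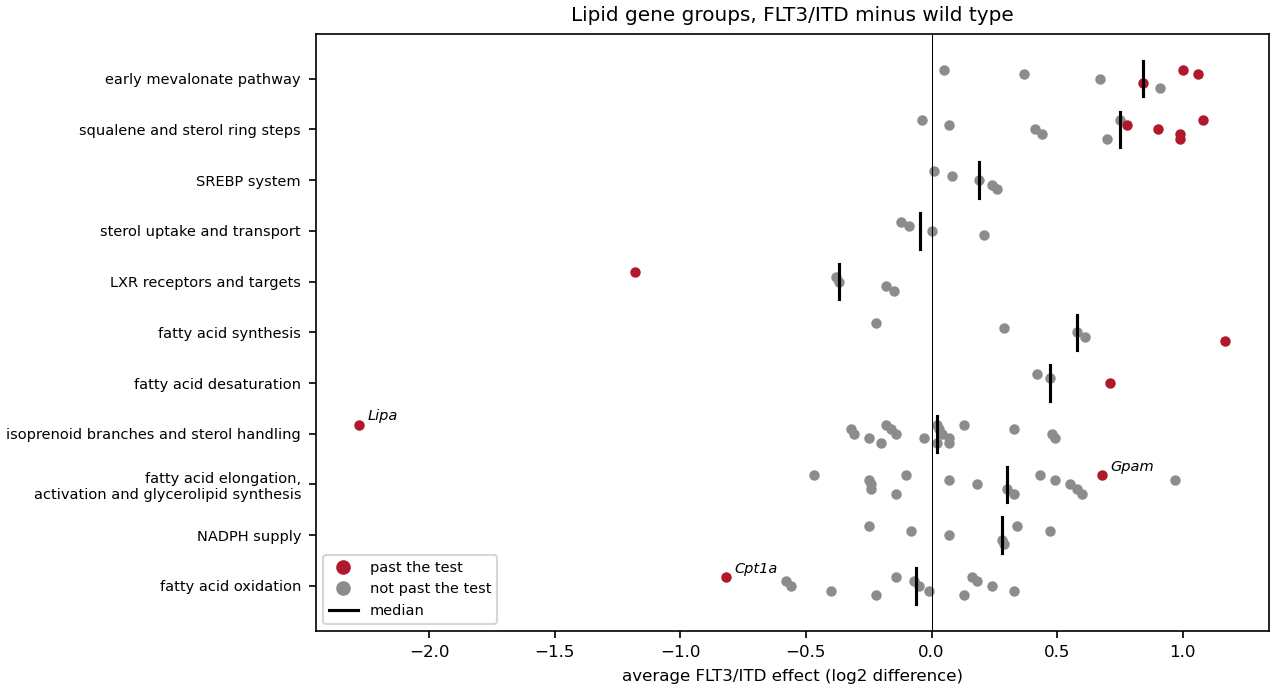
Average FLT3/ITD effect (log2 difference, horizontal axis) of each tested gene in the 7 roles of the members and in 4 neighbouring lipid lists (rows), with genes past the test in red and the median of each row as a black bar. The medians of the sterol steps lie at 0.84 and 0.75, and Lipa lies at -2.28.

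Some markers of blood cell types differed between the same groups. Of 12 pro-B cell markers 7 were tested and 6 were well above background on all 8 arrays, while Igll1, Pax5, Ebf1, Il7r and Rag1 were not well above background on both arrays of any group. In FLT3/ITD cells 1 of the 7 passed, Ptprc, the pan-leukocyte phosphatase CD45, which fell by 0.55 (adjusted p = 0.0414), while the list median was 0.12. Vpreb3 (0.49), Cd79b (0.25), Cd79a (0.20) and Vpreb1 (0.12) had differences above 0, and Dntt was at -0.07. Of the 7 markers 2 were higher in both sets and 2 lower in both. For Cd79a, Cd79b and Dntt the sets went opposite ways, lower in set 1 and higher in set 2. Of 3 IL3 receptor chains Csf2rb2 fell by 0.60 (adjusted p = 0.0318) and the other 2 did not pass, with a list median of -0.51. Of 5 mast cell and basophil markers the protease Mcpt8 fell by 4.40 (adjusted p = 0.000163), and the other 4 had differences of -1.51 to -0.42 and did not pass. Of 3 monocyte and macrophage markers the lysozyme Lyz2 rose by 2.57 (adjusted p = 0.000504), and Adgre1 (-0.68) and Cd14 (-0.34) did not pass. Of 3 T cell markers the adaptor Lat rose by 2.08 (adjusted p = 0.00528), and Cd4 (0.13) and Cd3e (0.00) did not pass. Over all features 3.57% rose and 2.57% fell in this comparison, and nothing is read from 1 gene about its list. The summed intensity of the 5 tested mast cell and basophil markers (Kit was not tested) is given in multiples of the 75th percentile. It was 62.3 to 128 in wild type, 30.6 to 81.1 in FLT3/ITD, 52.8 to 115 in wild type with Cxcl12 and 34.1 to 97.0 in FLT3/ITD with Cxcl12. That of the 7 pro-B cell markers was 21.7 to 40.4, 18.4 to 27.3, 20.2 to 31.8 and 17.5 to 23.8 in the same order. The 3 tested monocyte and macrophage markers of 5 summed to 17.9 to 48.2, 9.94 to 42.5, 20.7 to 41.0 and 7.70 to 45.9. Csf1r and Itgam were not tested. The 3 tested T cell markers of 5 summed to 0.789 to 0.837, 2.18 to 2.35, 0.744 to 1.16 and 2.10 to 7.51. Cd3g and Cd8a were not tested. As for the pro-B cell markers, genes not tested were not well above background on both arrays of any group. A sum leans on the brightest gene of its list. On every array this was Gata2 for mast cells and basophils, Ptprc for pro-B cells, Adgre1 for monocytes and Lat for T cells. The sums thus do not stand for the other markers of a list. Ranges run over the 2 arrays of a group, and the part of these markers in the lipid gene differences was not tested.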

How the data were processed

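Total RNA of 8 samples had been labelled with 1 dye (Cy3) for Agilent mouse arrays. Per the file headers, the deposited processed signal is an intensity from Agilent Feature Extraction, version 9.5.1.1 (set 1) or 10.7.3.1 (set 2), with a spatial trend removed on each array and no scaling between arrays. The authors' normalized tables hold a linear signal scaled per array, with 99.7% to 99.8% of values within 0.01 (log2) of the rescaled processed signal. They served as an alternative.

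Control spots and outlier spots (93 to 203 per array) were left out. Log2 was taken, the 75th percentile of each array subtracted and spots of a probe averaged. Between 49.2% and 54.9% of spots were well above background, and 21126 of 41174 probes were used. limma 3.58.1 (R 4.3.3, data.table version 1.17.8; plots with matplotlib 3.10.9) fitted all 8 arrays with 4 group means, the set as a block and eBayes with an intensity trend, on 3 residual degrees of freedom. Sets are the slides named in the file headers, and within them the deviations from group means correlated at 0.744 to 0.881. P-values were adjusted by Benjamini-Hochberg over all 13848 features, and "rose" and "fell" mean an adjusted p under 0.05. The fit was tested on simulated data.

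Values on every array are given for members past the test and, in comparisons without one, for the 3 members with the largest differences of the same direction in both sets. Of each neighbouring list up to 4 passing genes are named. Other members are given by their intervals. The value of 1 marker gene is not reported here. The members and the lists were chosen with earlier results of these data known. Probe positions come from the set 2 files, which use mm9, and exon or gene annotation of that build was not used here. Promoters are from the RefSeq table for GRCm38.p6. Alternatives were other background corrections, normalizations, filters, probe choices and fits, and leaving out each array. The number of arrays limits the precision.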

Additional observations from a re-analysis of the deposited data

How the results depend on the processing

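Of 25 differences of named members, 24 kept their direction under every alternative run. The exception was the interaction of Nr1h3, not well above background in 3 groups, which turned from 0.73 to -0.86 with normexp. In the average FLT3/ITD comparison 11 members passed, and 4 with normexp (all features 362 in place of 850). On the wild type with Cxcl12 array of set 2, 5 spots have a local background of up to 142000. With the median background in place of spots marked as background outliers, an alternative chosen after seeing the data, 11 passed. With no filter on dim probes 5 passed (all features 184), without the intensity trend 8 (all features 450), and with 1 array left out 1 to 15. The pairing by set mattered for every comparison with a call: with no replicate block 0 members passed in each.

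In cells without Cxcl12 the members that passed went from 0 to 5 in the authors' tables, where the median of all features moved from -0.05 to 0.19, and were 0 to 0 with an array left out. In cells with Cxcl12 they went from 1 to 0 with the median background, quantile normalization, the authors' tables, no filter and no trend, to 2 with the mean of probes, and to 0 to 1 with an array left out. In the average Cxcl12 comparison they went from 1 to 2 with normexp and in the authors' tables, to 3 with probes above background on all 8 arrays, to 0 with the median background, no filter, the mean of probes and no trend, and to 0 to 2 with an array left out. For Cxcl12 in either kind of cell and for the interaction, 0 members passed under every alternative run, 0 to 0 with an array left out. The group order of 17 members held for 5 with normexp. Where no value is named, the cause was not tested. With 2 arrays per group and a pooled spread, the error between the duplications N51 and N78 may be larger than the SE given.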
